A study of Mus musculus with 9 samples.

Results

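Small pre-B cells are the stage of B-cell development between the dividing large pre-B cell and the immature B cell, and here they were taken as the bone marrow cells with Rag1 transcripts, CD79 transcripts and no transcripts of the proliferation genes. A barcode was a member when it held at least 1 UMI of Rag1, at least 2 UMIs of Cd79a and Cd79b together, and no UMI of Mki67, Top2a, Dntt or Ighd. A UMI is a molecular tag that marks 1 captured transcript. Of the 68444 barcodes called as cells, 39051 had 1000 UMIs or more in 500 genes or more, no more than 10% of the UMIs being mitochondrial, and 469 of these kept barcodes were members. The libraries were single cell RNA sequencing of flushed femoral bone marrow after lysis of red cells, with 1 library per mouse from 9 mice, 3 of each strain. All mice were female, 9 to 10 weeks of age, and no treatment is named for them. The strains were NZB and NZW, the Black and the White of the New Zealand mice, and NZBWF1, the first generation offspring of an NZW mother and an NZB father. The labels name the NZBWF1 libraries after systemic lupus erythematosus (SLE), the disease this hybrid develops with age, and no group carried an induced mutation. Marrow was not sorted, so that the members were picked by transcripts alone and no surface protein or cell size was measured.

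A pre-B cell has joined a heavy chain gene and tests it on the surface together with a surrogate light chain made of the proteins of Igll1 and the Vpreb genes. Signals of this pre-B receptor and of interleukin-7 drive a burst of division, after which the cell comes to rest, loses the surrogate chain, and turns the recombinase of Rag1 and Rag2 on the light chain genes. Cd79a and Cd79b encode the signalling chains of the receptor, Dntt the terminal transferase of pro-B cells, and Ighd the delta heavy chain of later B cells. NZB and NZW are the parents of a widely used lupus model, and the comparisons below ask how these cells differ among the strains and from their neighbours in development.

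The 9 libraries held 2455 to 5684 kept barcodes, with 8106539 to 18663189 UMIs in them. The members of a mouse held 11283 to 199337 UMIs in sum, and a member had a median of 1356 UMIs and 796 genes, against 2810 UMIs and 1386 genes in large pre-B cells. Of the kept barcodes, 342 had a sequence that occurred in more than 1 library, and 5 of these were members. No sequence was a member in more than 1 library, and the largest share of a library in common with another was 0.273%. Levels below are CPM, the UMIs of a gene scaled to 1000000 UMIs in the summed members of a mouse. Where a barcode holds UMIs of another cell as well, that sum contains them.

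Members were rare in NZB marrow. NZB mice 1, 2 and 3 had 10, 6 and 6 members, NZW mice 93, 36 and 81, and NZBWF1 mice 73, 46 and 118. As a share of kept barcodes this was 0.407, 0.117 and 0.183% in NZB, 2.16, 0.70 and 1.64% in NZW, and 2.84, 0.829 and 2.08% in NZBWF1. The means were 0.236% ± 0.152 (SD, n = 3), 1.5% ± 0.739, and 1.92% ± 1.02. Each NZB mouse lay under each mouse of the other strains, and NZW and NZBWF1 overlapped. The 95% Clopper-Pearson interval, which covers counting error only, reached up to 0.748% in NZB mouse 1, the highest of its strain, and began at 0.491% in NZW mouse 2, the lowest of its strain. In every strain mouse 1 had the highest share and mouse 2 the lowest. The labels do not say whether the number marks anything the mice had in common.

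**Figure D1:**
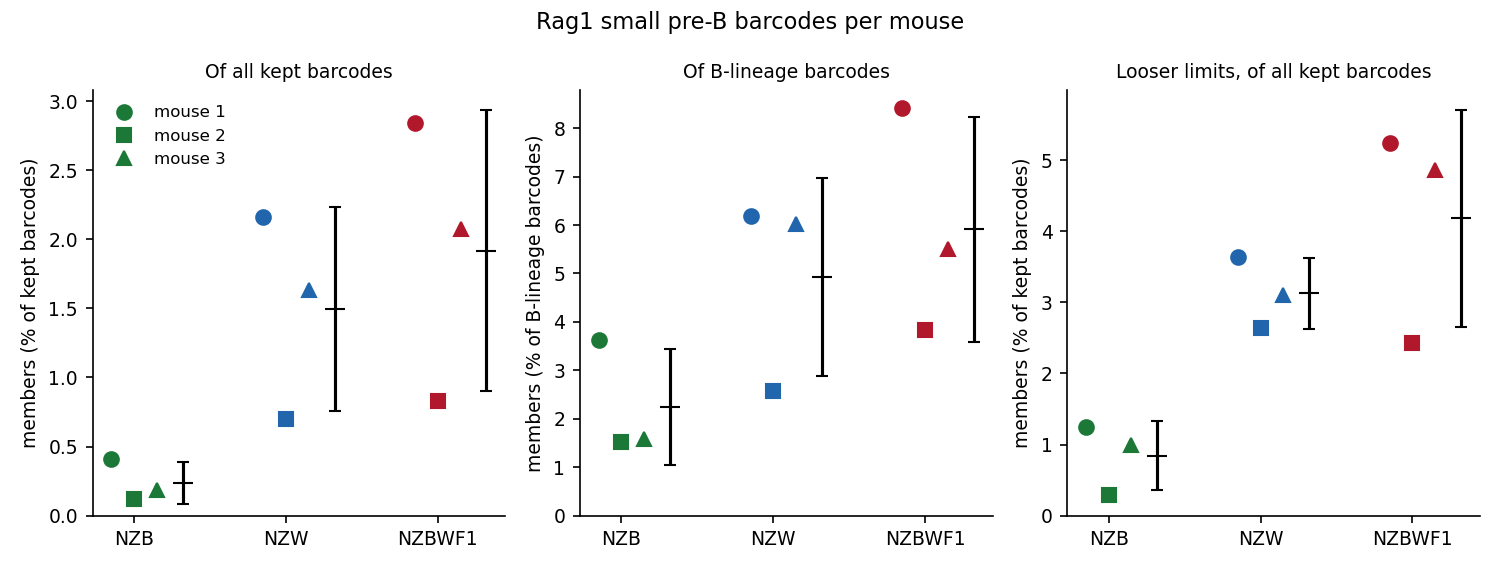
Members of each mouse in percent of all kept barcodes (left), of B-lineage barcodes (middle), and of all kept barcodes at limits of 500 UMIs and 250 genes (right), with 1 symbol per mouse, shaped by its number, and a bar for the mean and SD of the 3 mice. The 3 NZB mice lie below all others on the left and on the right, and in the middle NZB mouse 1 lies above NZW mouse 2.

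In edgeR's quasi-likelihood test on the numbers of cells, with Benjamini-Hochberg adjustment over the 6 B-lineage groups of the gate, members were more abundant in NZBWF1 than in NZB (log2 difference ± SE 3.09 ± 0.65, adjusted p = 0.00143) and less abundant in NZB than in NZW (-2.75 ± 0.65, adjusted p = 0.00266). They were also above the mean of the parents' logs in NZBWF1 (1.72 ± 0.49, adjusted p = 0.016), a contrast that includes the low NZB value and that was lost without NZBWF1 mouse 3 (1.64, adjusted p = 0.0554). Where the parents differ, a mean of logs lies below the log of their mean share. The mean of the parents stands for this mean of logs in all results below. NZBWF1 and NZW did not pass the test (0.34 ± 0.55, adjusted p = 0.964). An exact permutation test of the mice, two-sided, gave p = 0.1 for each contrast with NZB alone, the smallest that 3 against 3 mice allow, p = 0.6 for NZBWF1 against NZW, and p = 0.155 for NZBWF1 against the 6 parental mice, where 0.0119 is the smallest it allows. The other B-lineage groups were higher in NZBWF1 than in NZB too, with log2 differences of 2.23 in pro-B cells, 1.63 in large pre-B cells and 1.70 in Ighd+ B cells, each past the test. For Ighd+ B cells the call was lost at limits of 500 UMIs and 250 genes (0.85, adjusted p = 0.11).

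Counted among B-lineage barcodes only, the difference was smaller. Members made up 3.62, 1.52 and 1.59% of B-lineage barcodes in NZB, 6.19, 2.57 and 6.02% in NZW, and 8.41, 3.83 and 5.51% in NZBWF1. NZB mouse 1 lay above NZW mouse 2, so that NZB and NZW overlapped, and the highest NZB value was below the lowest NZBWF1 value. None of the contrasts passed the test with this total: the log2 difference was 1.44 ± 0.51, adjusted p = 0.106 for NZBWF1 against NZB and -1.19 ± 0.52, adjusted p = 0.251 for NZB against NZW. The call therefore held for a share of all marrow barcodes and was lost for a share of the B lineage.

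Most barcodes that met the gate had too few UMIs to be kept. In all called barcodes the gate was met 1940 times, with a median of 781 UMIs, and 1453 of these (74.9%) lay under 1000 UMIs, against 2.39% of 3051 large pre-B cells and 34.9% of all called barcodes. With limits of 500 UMIs and 250 genes, chosen after this was seen, there were 1749 members, with 53, 22 and 56 in NZB, 251, 217 and 258 in NZW, and 223, 208 and 461 in NZBWF1. Their shares were 1.24, 0.297 and 0.994% in NZB, 3.63, 2.64 and 3.11% in NZW, and 5.25, 2.43 and 4.87% in NZBWF1, and NZB again lay lowest (2.32 ± 0.49, adjusted p = 0.00103 against NZBWF1, -1.91 ± 0.49, adjusted p = 0.00373 against NZW). The limits kept 14.9, 15.4 and 9.09% of the barcodes that met the gate in the NZB mice, 35.2, 15.1 and 30.1% in NZW, and 30.0, 18.3 and 23.5% in NZBWF1. Over all called barcodes, with no limit, NZBWF1 lay above NZB by 2.14 ± 0.39 (adjusted p = 0.000125) and NZB stood at -1.70 ± 0.39 against NZW (adjusted p = 0.000721), both on the log2 scale. The 469 members are thus the deeper sequenced part of the cells that met the gate.

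The edges of the gate are given as description. Of the 469, 327 held 1 UMI of Rag1 and 142 held more. Vpreb3, a B-lineage relative of the surrogate chain genes that was not in the gate, stood at 3402 CPM in the former and 3998 in the latter. In the 2956 barcodes that met the rest of the gate with no Rag1 UMI, Vpreb3 was 1457 CPM, Sox4 177 against 686 in all members, and Igkc, the constant part of the kappa light chain, 140443 against 7264, of which 58% came from 1 member. Barcodes with 1 UMI of Cd79a and Cd79b (24 cells) had 2919 CPM of Vpreb3, and members with 2 such UMIs (51 cells) had 2656. A single UMI of Dntt left out 47 barcodes, in which Igll1 was 2076 CPM against 187 in the members. A single UMI of Ighd left out 74 barcodes, with 510.1 CPM of Ms4a1, which encodes CD20, against 260.5. The 182 barcodes up to 100 UMIs short of the limit of 1000 had 5070 CPM of Vpreb3, and the 99 members less than 100 UMIs over it had 5054.

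The labelled cell type was checked against its markers. Vpreb3 was found in 97.9% of members, and in 93.0% after each cell was thinned to 1000 UMIs, against 0.447% of thinned neutrophils, which should lack it. The neutrophils were the 14317 kept barcodes with at least 20 UMIs of S100a8 and S100a9 and 0 of Cd79a and Cd79b. The median depths before thinning were 1356 UMIs in the members and 2506 in the neutrophils. Rag1 was in all members by the gate and in 75.7% of thinned members, against 0.0559% of neutrophils, which is no support for the label. Among markers that the gate did not use, Ighm, the mu heavy chain, was in 98.9% of members (96.2% thinned, 4.62% in neutrophils), Sox4 in 57.8% (46.5% and 0.573%), and Il7r, the interleukin-7 receptor, in 46.5% (36.7% and 0.384%). Rag2, the partner of Rag1 in the recombinase, was in 12.2% (10.2% and 0.00698%), and Il2ra, the CD25 chain that classically marks small pre-B cells, in 12.8% (8.96% and 0.0349%). Each share lay above that of neutrophils, and the low Rag2 and Il2ra shares came with levels of 77.0 and 87.2 CPM over all members. Neutrophils without Cd79 transcripts cannot separate the members from other stages of the B lineage.

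Some members carried transcripts of neutrophils. The UMIs of 10 neutrophil markers, among them S100a8 and S100a9, the calprotectin genes, were counted in every member. No such UMI was held by 134 members, while 127 held 1, and 102 held 2 or 3, whereas 86 members (18.3%) held at least 20. Few lay in between, so the members formed separate groups by this count. The 86 had a median of 2387 UMIs against 1244 in the other 383, and 1613 CPM of Vpreb3 against 4320. They numbered 0, 3 and 2 in NZB, 10, 12 and 17 in NZW, and 8, 14 and 20 in NZBWF1, and the share was highest in mouse 2 of each strain. Other groups of the gate had 11.2% (pro-B), 12.2% (large pre-B), 12.7% (Ighd+) and 20.4% (Rag1-negative) of such barcodes. A doublet score in the manner of Scrublet removed 20 members, 11 of them among the 86. The 10 markers summed to 492 to 184450 CPM over the NZB mice, 42358 to 117923 over the NZW mice, and 73047 to 101637 over the NZBWF1 mice, and without the 86 to 456 to 1793 CPM over all 9. Results below are for all members, and the values without the 86 follow where they change the call of a named gene. What part these transcripts have in other results was not tested.

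**Figure D2:**
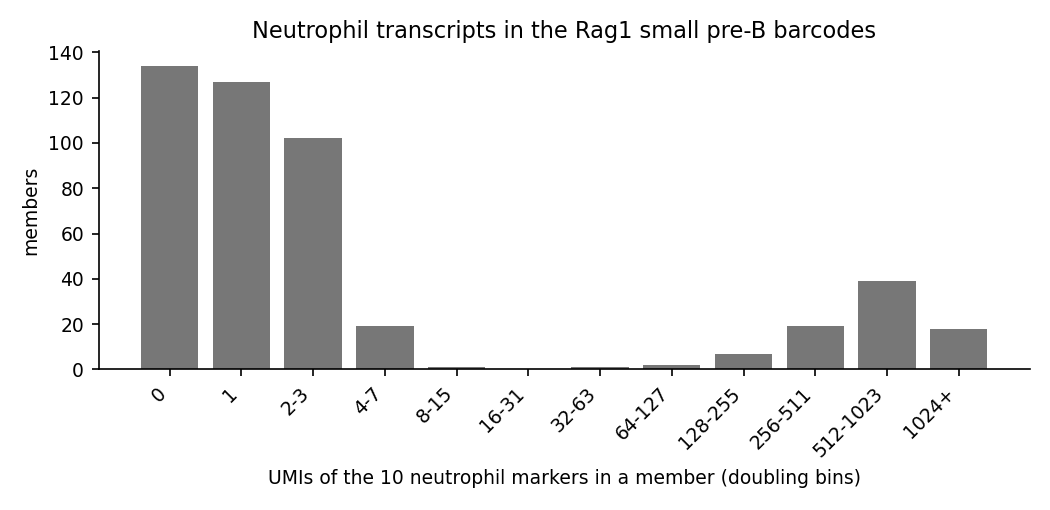
Number of members (vertical) by their UMIs of 10 neutrophil markers (horizontal, in bins of doubling width). The members fall into a large group with 0 to 7 such UMIs and a smaller one, mostly above 127.

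Markers of other cell types were summed as well. In the members of a mouse the 8 erythroid markers summed to 0 to 289 CPM, the 10 T-cell markers to 0 to 368, the 6 NK-cell markers to 0 to 328, and the 8 monocyte and macrophage markers to 0 to 1121. Of the 469 members, 2 held 20 or more UMIs of the NK-cell list and 3 of the monocyte and macrophage list. The T-cell markers summed to 160 to 240 CPM in NZW and 311 to 368 in NZBWF1, without overlap. Of 2 that were tested between these strains, 0 had an unadjusted p under 0.05 in edgeR's test. Their part in the strain results was not tested. The 6 plasmacytoid dendritic cell markers summed to 172 to 2216 CPM, with Tcf4 shared with the B lineage and the highest values in NZB mouse 2 (1335) and NZB mouse 3 (2216). These mice had 6 members each, with 11987 and 11283 UMIs in sum, so that both values rest on few UMIs. Apart from Tcf4, 448 of the 469 members held 0 UMIs of this list, and 1 held 20 or more. The 6 early progenitor markers summed to 83.5 to 417. The 6 plasma cell markers summed to 334 to 6221 CPM, and the highest value was that of NZW mouse 2. There, 1 member of 9267 UMIs held 403 UMIs of Jchain, the joining chain of secreted antibody, and 3284 of the 3473 Igkc UMIs of that mouse's members. With this cell Igkc was 46365 CPM in that mouse, and without it 2879. Ighm went from 17889 to 5241 CPM in the same way, so the Igkc and Ighm levels of NZW mouse 2 rest mostly on 1 cell.

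The members were next set beside the stages before and after them, within the same mice. Large pre-B cells had at least 2 UMIs of Mki67 and Top2a and none of Dntt or Ighd, pro-B cells had Dntt without Mki67, Top2a or Ighd, and Ighd+ B cells had Ighd without the other 3. Rag1 was required of the members alone, and these groups had no condition on it. The gate sorted all of them by these genes in the same barcodes, so that genes that go along with a gate gene in a cell were bound to differ as well, and the tests below describe the size and the regularity of differences between groups made in this way. Mice with at least 10 cells in both groups entered, which left 7 mice against large pre-B and Ighd+ B cells, with NZB mouse 1 as the only NZB mouse, and 6 mice without NZB against pro-B cells. Each test had the mouse as a block and was adjusted over all genes tested.

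Against large pre-B cells, 931 of 3620 genes were higher in the members (25.7%) and 1278 lower (35.3%). The cell cycle follows from the gate and is given without a test: the median log2 difference was -2.99 over 21 S-phase genes and -5.00 over 24 genes of G2 and mitosis, against -0.12 over all genes. The 8 lower genes of smallest p, among them the linker histone gene Hist1h1b (-6.15), the mitotic ubiquitin carrier Ube2c (-5.65), and the tubulin gene Tuba1b (-4.35), belong to replication, chromatin, or mitosis. In the other direction, Malat1, a nuclear noncoding RNA, ranged over 16034 to 26137 CPM in the members (median 18752) and 4307 to 6319 in the large pre-B cells (median 4930). Btg1, a brake on proliferation, ranged over 654 to 1391 CPM in the members (median 1015) and 155 to 259 in the large pre-B cells (median 207). The members were higher in 7 of 7 mice for both, without overlap (log2 differences 1.83 ± 0.084, adjusted p = 1.97e-29, and 2.23 ± 0.12, adjusted p = 8e-29). The related Btg2 had a difference of 2.33 ± 0.12, adjusted p = 1.83e-28. Of 12 genes of quiescence and cell cycle exit, 7 were higher and 3 lower, with Pnrc1 at 1.48 ± 0.14 and Ccnd3, the cyclin D3 of pre-B expansion, at -0.32 ± 0.12. The remaining higher genes of smallest p were Atp1b1, a sodium pump subunit (2.16 ± 0.13), Lsp1, a leukocyte actin-binding protein (2.2 ± 0.13), Cd37, a B-cell tetraspanin (1.89 ± 0.12), Arl5c (2.08 ± 0.12) and Gm26740 (2.07 ± 0.13).

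Regulators and receptors of the B lineage were mostly higher at rest. Of 24 B-lineage transcription factors tested, 18 rose and 1 fell, against 25.7% and 35.3% of all genes, and the median was 0.67. Ebf1, which sets up the B-cell programme, rose by 1.22 ± 0.099, and Sox4, which acts in early B cells, by 1.15 ± 0.12. Klf2, a factor of resting lymphocytes, rose by 1.86 ± 0.12, and Bach2 by 0.72 ± 0.20. All 7 chemokine and survival factor receptors tested rose, with Cxcr4, the receptor that holds precursors in the marrow, at 0.84 ± 0.15 and Tnfrsf13c, the BAFF receptor, at 1.40 ± 0.22. The call of Tnfrsf13b, a further receptor of the BAFF family ligands (0.42 ± 0.18), was lost without NZBWF1 mouse 2 or NZBWF1 mouse 3 (log2 differences 0.32 to 0.43, adjusted p = 0.0561 to 0.19). Of 13 genes of the maturing surface and antigen presentation, 11 rose, among them Cd74, the invariant chain (1.73 ± 0.39, adjusted p = 0.00792), and Ly6d (2.12 ± 0.33, adjusted p = 0.00147). Il7r (0.54 ± 0.14) and the kinase gene Jak1 (0.76 ± 0.16) rose, as 2 of 3 genes of the interleukin-7 list. Among 6 regulators of apoptosis, Mcl1 (1.38 ± 0.14) and Bcl2l1 (1.14 ± 0.21) rose, Cd24a fell (-1.20 ± 0.11), and 3 did not pass. Cd2, an adhesion molecule of the T-cell list that B-cell precursors also express, rose by 2.90 ± 0.24.

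The machinery of recombination moved in both directions. Rag2 was too low to be tested against large pre-B cells. Of 5 genes of recombination and end joining that were tested, Xrcc6, the Ku70 subunit that binds broken ends, rose by 0.93 ± 0.16, adjusted p = 5.47e-07, and Lig4, the ligase of end joining, by 0.61 ± 0.23, adjusted p = 0.0189. The 3 lower genes were Hmgb1 (-2.09) and Hmgb2 (-2.88), DNA-bending cofactors of the recombinase that are also abundant in dividing cells, and the histone gene H2afx (-5.10). Among the pre-B receptor and its signalling genes, 11 of 16 rose, and both lists stand against 25.7% higher and 35.3% lower over all genes. Vpreb3 ranged over 2016 to 5408 CPM in the members (median 3745) and 958 to 2012 in the large pre-B cells (median 1511), with no overlap (1.15 ± 0.097, adjusted p = 1.02e-16). Syk, the kinase that relays the receptor signal, rose by 1.35 ± 0.12, and Blnk, its adaptor, by 0.96 ± 0.13. The light chain constant genes Iglc1, Iglc2 and Iglc3 rose by 2.46, 2.16 and 2.17 (adjusted p = 0.0181, 0.0257 and 0.00746), while Igkc, with SE 1.42, was at 0.19 and did not pass (adjusted p = 0.921). These 3 lambda genes share sequence, so that reads could be split among them. Igkc ranged over 1949 to 46365 CPM in the members (median 3617) and 586 to 52317 in the large pre-B cells (median 3333), and the highest value of the members was that of NZW mouse 2. In large pre-B cells, the 7 light chain genes summed to 53825.5 CPM in NZB mouse 1, 14296 and 16511 in NZBWF1 mice 2 and 3, and 623 to 3556 in the other mice tested. The 6 plasma cell markers summed to 6891, 2186 and 1814, and 528 to 870 CPM in the same order. Their part in the result was not tested. Igll1 (-1.02 ± 0.50, adjusted p = 0.126) and Vpreb1 (-0.32 ± 0.48, adjusted p = 0.604) did not pass, although Igll1 did without NZBWF1 mouse 2 (-1.58, adjusted p = 0.019). H2afx, Igll1 and Vpreb1 were named here after their values were seen. The call was lost for Lig4 without NZW mouse 3 or NZBWF1 mouse 1 (log2 differences 0.51 to 0.57, adjusted p = 0.0796 to 0.0833), for Iglc2 without NZW mouse 1, NZW mouse 2 or NZBWF1 mouse 3 (log2 differences 1.95 to 2.29, adjusted p = 0.0548 to 0.0609), and for Ccnd3 without NZW mouse 1, NZW mouse 2, NZW mouse 3, NZBWF1 mouse 1 or NZBWF1 mouse 3 (log2 differences -0.30 to -0.22, adjusted p = 0.0705 to 0.197).

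Some markers of other cell types differed between the members and large pre-B cells. Of 8 erythroid markers 3 were high enough to be tested, and all 3 fell: the carbonic anhydrase genes Car1 (-3.49 ± 0.29, adjusted p = 1.7e-17) and Car2 (-3.05 ± 0.24, adjusted p = 1.88e-19), and the globin gene Hbb-bs (-2.38 ± 0.43, adjusted p = 0.00183). In the mice tested, the 8 markers summed to 457.6 to 1950 CPM in the large pre-B cells and to 54.4 to 289 CPM in the members. Of 3 monocyte and macrophage markers tested 1 rose, Ccr2, a chemokine receptor (1.51 ± 0.49, adjusted p = 0.0322), and its call was lost without NZW mouse 1, NZBWF1 mouse 2 or NZBWF1 mouse 3 (log2 differences 1.37 to 1.61, adjusted p = 0.0686 to 0.0774). The 8 monocyte and macrophage markers summed to 136 to 332 CPM in the large pre-B cells of the mice tested and to 63.5 to 1121 CPM in their members. Of 10 neutrophil markers 4 were higher and 2 lower. The counts of these lists stand against 25.7% of all genes higher and 35.3% lower. The part of the erythroid and monocyte markers in the result was not tested.

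**Figure D3:**
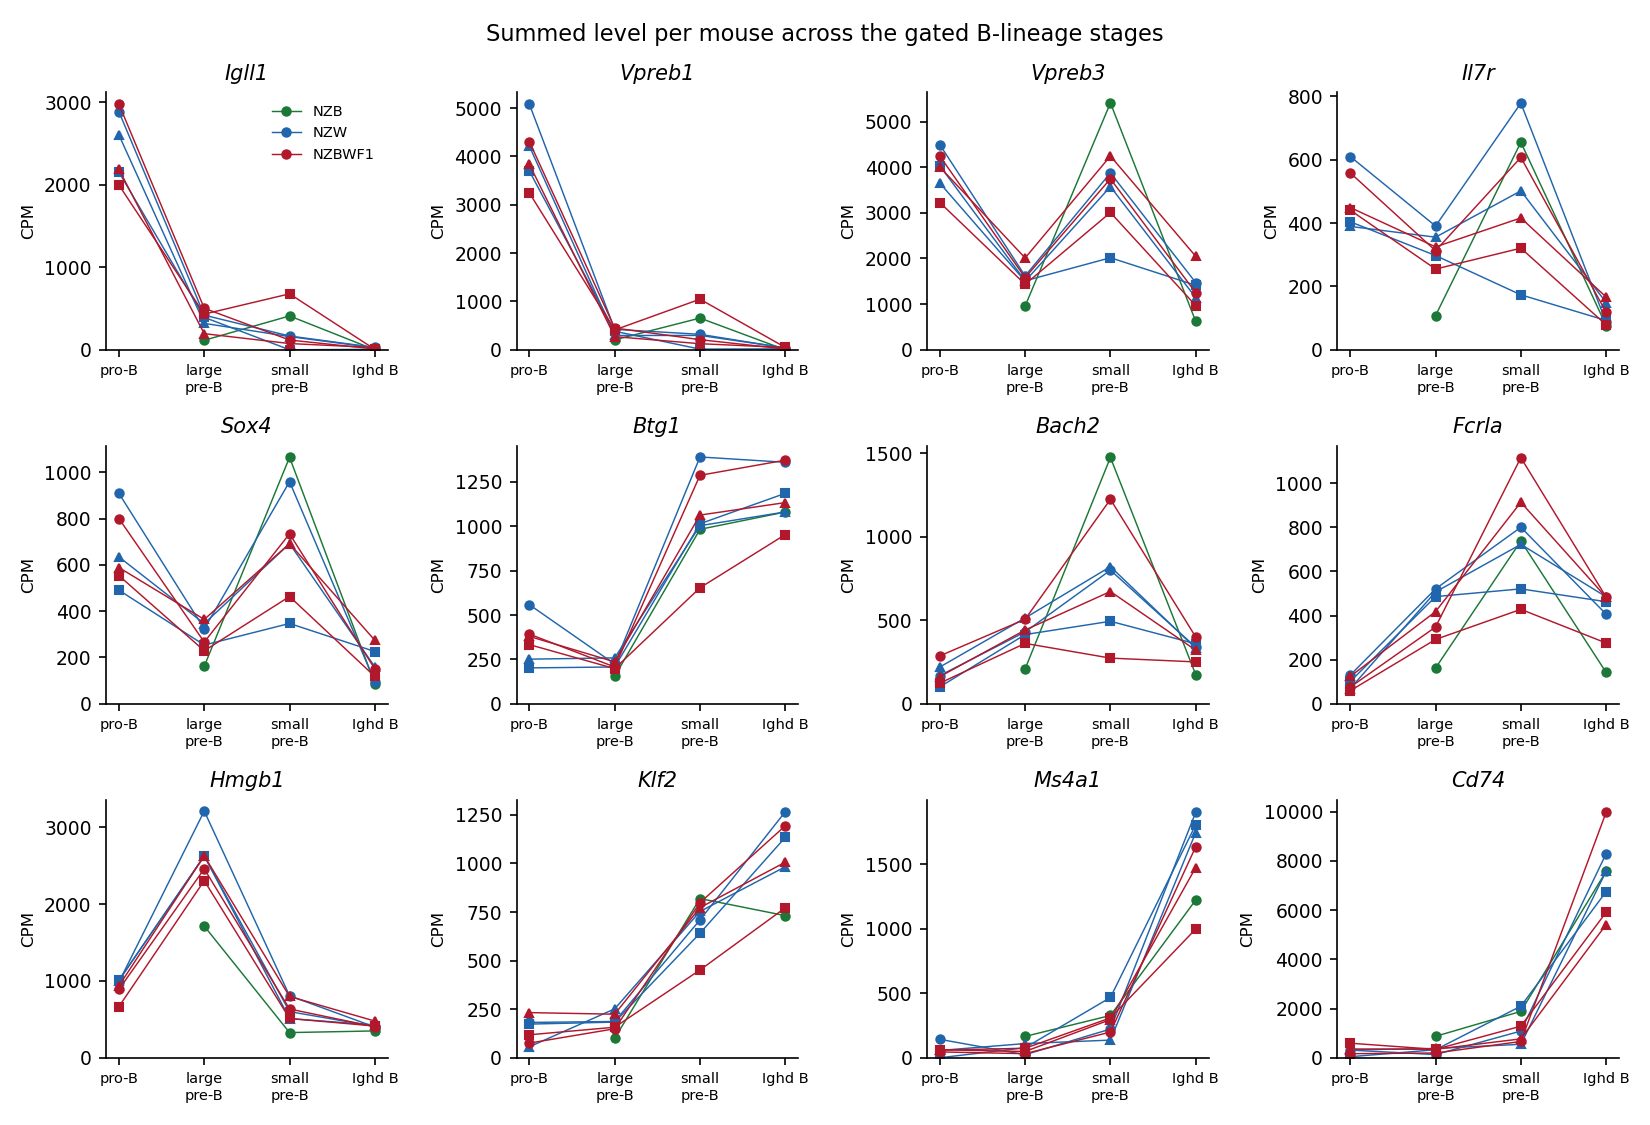
Level in CPM of 12 genes (vertical, linear axes from 0) in the summed pro-B, large pre-B, Rag1+ small pre-B and Ighd+ B cells of each mouse with at least 10 members, with lines that join the stages of 1 mouse, colours for the strain, and circles, squares and triangles for mice 1, 2 and 3. NZB is drawn from NZB mouse 1 alone, without its pro-B cells. Igll1 and Vpreb1 are highest in pro-B cells, Vpreb3 is higher in pro-B and small pre-B cells than in large pre-B cells, and Ms4a1 and Cd74 are highest in Ighd+ B cells.

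In the pre-B receptor itself, the members differed from pro-B cells in the surrogate light chain genes. The gate parted these groups by Dntt, and by Rag1, which was required of the members alone. Genes that go along with either were bound to differ. Barcodes left out of the members for 1 UMI of Dntt had 2076 CPM of Igll1, against 187 in the members. Of 1931 genes tested in 6 mice, 262 were higher in the members (13.6%) and 261 lower (13.5%), and of the 16 receptor and signalling genes 6 rose and 4 fell. Igll1, the lambda5 chain, ranged over 0 to 677 CPM in the members (median 139) and 1995 to 2974 in the pro-B cells (median 2393). It was higher in the members in 0 of 6 mice (-3.88 ± 0.60, adjusted p = 0.00743). Vpreb1 ranged over 13.4 to 1046 CPM in the members (median 253) and 3242 to 5077 in the pro-B cells (median 4022). It fell by 3.92 ± 0.61, adjusted p = 0.00736, and Vpreb2, a near-identical copy whose reads may be split with it, by 3.12 ± 0.79, adjusted p = 0.0394. Vpreb3 is not part of the surrogate chain, and it ranged over 2016 to 4244 CPM in the members (median 3659) and 3226 to 4493 in the pro-B cells (median 4016). It did not pass the test (-0.18 ± 0.095, adjusted p = 0.171). The call of Vpreb2 was lost without NZW mouse 1, NZW mouse 2, NZW mouse 3, NZBWF1 mouse 1 or NZBWF1 mouse 3 (log2 differences -3.06 to -2.74, adjusted p = 0.0885 to 0.112), while those of Igll1 and Vpreb1 held without each mouse in turn. The groups did not overlap for Igll1 and Vpreb1 and did overlap for Vpreb3.

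Igll1 and Vpreb1 are neighbours on chromosome 16, and Vpreb3 lies on chromosome 10. The sequences before their starts are shown because the first pair fell together and the third gene did not. They are the 250 bases before the start that RefSeq gives on GRCm38.p6, written 5′ to 3′ on the strand of the gene. Capitals mark each match to CAGGTG or its reverse complement CACCTG, searched on both strands, an E-box that E proteins such as the product of Tcf3 can bind. Igll1 covers chr16:16863986-16864235 on the minus strand, Vpreb1 chr16:16869256-16869505 on the minus strand, and Vpreb3 chr10:75948050-75948299 on the plus strand.
Igll1: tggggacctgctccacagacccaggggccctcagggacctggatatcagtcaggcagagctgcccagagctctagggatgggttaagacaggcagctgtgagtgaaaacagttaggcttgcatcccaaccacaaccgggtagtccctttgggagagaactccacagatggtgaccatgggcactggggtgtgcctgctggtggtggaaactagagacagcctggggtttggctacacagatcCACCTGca
Vpreb1: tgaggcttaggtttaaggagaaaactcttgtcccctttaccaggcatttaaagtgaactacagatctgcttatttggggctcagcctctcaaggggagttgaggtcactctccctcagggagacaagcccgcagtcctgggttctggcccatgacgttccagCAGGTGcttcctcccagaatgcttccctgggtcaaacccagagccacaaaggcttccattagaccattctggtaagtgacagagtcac
Vpreb3: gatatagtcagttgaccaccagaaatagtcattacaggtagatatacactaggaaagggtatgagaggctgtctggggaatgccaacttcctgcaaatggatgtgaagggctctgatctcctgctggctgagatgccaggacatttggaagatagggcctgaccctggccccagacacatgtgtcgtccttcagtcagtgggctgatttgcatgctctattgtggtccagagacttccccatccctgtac
The Igll1 sequence held 1 match, 8 bases before the start, Vpreb1 held 1 match, 88 bases before it, and Vpreb3 held 0. These counts depend on the start chosen. The annotation GENCODE vM21 has the same start for Igll1. It begins Vpreb1 at 16870843 and Vpreb3 at 75943057, further upstream, so that their windows lie inside the genes as it gives them. Windows before those starts were not searched. Of 32851 promoters of this length, 17.2% held the motif. The palindrome of TCCC and GGGA with any 2 bases between, a core bound by EBF1, was searched for on both strands, held by 0.779% of promoters, and matched in none of the 3 windows. Binding of a factor was not measured.

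Apart from the surrogate chain, several genes were higher in the members than in pro-B cells. Of these, Fcrla, Bach2 and Irf4 were also higher in the members than in Ighd+ B cells. Fcrla, an Fc receptor-like protein of maturing B cells, ranged over 428 to 1115 CPM in the members (median 761) and 59.1 to 129.9 in the pro-B cells (median 88.3) (3.03 ± 0.18, adjusted p = 1.91e-12; higher in 6 of 6 mice). Of 11 genes of the maturing surface, 8 were higher, against 13.6% of all genes higher and 13.5% lower. Of 23 transcription factors, 8 rose and 8 fell: Bach2 (1.98 ± 0.17), Irf4, which acts in light chain recombination (1.84 ± 0.32), and Klf2 (2.35 ± 0.22) rose, and Lef1 (-2.65 ± 0.30), Tcf4 (-0.79 ± 0.19) and Ebf1 (-0.40 ± 0.082) fell. Sox4 (0.013 ± 0.12, adjusted p = 0.959), Pax5 (0.085 ± 0.14, adjusted p = 0.712) and Il7r (-0.0063 ± 0.16, adjusted p = 0.984) did not pass the test. Syk rose by 1.20 ± 0.14, and Blnk fell by 0.87 ± 0.13. Iglc1 rose by 4.12 ± 0.33, and Igkc, at 2.59 ± 1.66, adjusted p = 0.339, did not pass. In pro-B cells the 7 light chain genes summed to 62112 CPM in NZBWF1 mouse 2 and 231 to 1131 in the other mice tested. In the members they summed to 3080 to 47994 CPM, highest in NZW mouse 2. The 6 plasma cell markers summed to 7635 CPM in the pro-B cells of NZBWF1 mouse 2 and 1247 to 1781 in the others. Their part in the result was not tested. Btg1 and Btg2 rose by 1.63 ± 0.16 and 1.28 ± 0.15, and of 9 genes of quiescence 5 rose. Of 6 chemokine and survival receptors, 4 rose and Itga4, an integrin chain, fell (-0.62 ± 0.21), a call that was lost without barcodes of 20 or more neutrophil UMIs (-0.52, adjusted p = 0.0975). Rag2 was measured in both groups and was at -0.60 ± 0.25, adjusted p = 0.0809, while Xrcc6 rose (0.62 ± 0.20). Cd93, the early progenitor marker AA4.1, fell by 1.76 ± 0.22. The genes of the surrogate chain, Irf4, Lef1 and Pax5 were named in this comparison after their values were seen. Calls were lost for Xrcc6 without NZW mouse 3, NZBWF1 mouse 1 or NZBWF1 mouse 3 (log2 differences 0.52 to 0.64, adjusted p = 0.0568 to 0.0914) and for Itga4 without NZW mouse 1, NZW mouse 3 or NZBWF1 mouse 1 (log2 differences -0.61 to -0.45, adjusted p = 0.0762 to 0.175).

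Among the genes of smallest p against pro-B cells were also Lmo4 (2.26 ± 0.18), a transcriptional adaptor, the signalling GTPase Rhoh (1.61 ± 0.17), and the noncoding Gm30211 (4.03 ± 0.26) and 4930523C07Rik (2.13 ± 0.20), all higher in the members. Lower were Mzb1, a chaperone of antibody assembly (-1.33 ± 0.12), Impdh1 of guanine nucleotide synthesis (-3.26 ± 0.32), the ribosomal protein gene Rps19 (-0.82 ± 0.084), Crip1 (-1.58 ± 0.17), Tbc1d10c (-2.03 ± 0.21), Rasgrp2 (-1.83 ± 0.19), Adgrg1 (-2.03 ± 0.22) and Tspan13 (-1.80 ± 0.18). Neutrophil markers moved with this comparison: 4 of 8 were higher, among them S100a8 (1.72 ± 0.42, adjusted p = 0.0366) and S100a9 (1.65 ± 0.41, adjusted p = 0.0371). Over all genes, 13.6% were higher and 13.5% lower. Without barcodes of 20 or more neutrophil UMIs, 176 genes were higher and 172 lower of 1394 tested (25%), and neither of these markers was among the called genes (0.060 and 0.14, adjusted p = 0.858 and 0.587). Both calls were also lost without NZW mouse 1, NZW mouse 2, NZW mouse 3, NZBWF1 mouse 1 or NZBWF1 mouse 3 (log2 differences 1.45 to 1.82, adjusted p = 0.0657 to 0.0883) for S100a8, and without NZW mouse 1, NZW mouse 2, NZW mouse 3, NZBWF1 mouse 1 or NZBWF1 mouse 3 (log2 differences 1.41 to 1.79, adjusted p = 0.0747 to 0.0929) for S100a9. With all members, the 523 calls became 337 without NZW mouse 3 and 348 without NZBWF1 mouse 3.

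Ighd+ B cells stood on the far side. Against them, 243 of 2706 genes were higher in the members (8.98%) and 344 lower (12.7%). Of 18 genes of the maturing surface and antigen presentation, 16 were lower and 2 higher, with a median of -2.19 against 0.00870 over all genes. The class II gene H2-Eb1 ranged over 145 to 328 CPM in the members (median 249.6) and 1374 to 2308 in the Ighd+ B cells (median 1769) (-3.11 ± 0.11, adjusted p = 2.76e-21). H2-Ab1 fell by 2.84 ± 0.13, H2-Aa by 3.46 ± 0.25, H2-DMb2 by 4.24 ± 0.31, and Cd74 by 2.89 ± 0.34. Ms4a1 (-2.66 ± 0.25) and Fcmr, the receptor for IgM (-3.00 ± 0.19), fell as well. The 2 higher genes were Fcrla (0.76 ± 0.12) and Cd38 (0.53 ± 0.17). The call of Cd38 was lost without NZW mouse 1 or NZW mouse 3 (log2 differences 0.37 to 0.47, adjusted p = 0.0809 to 0.173). H2-Aa, Ms4a1 and Cd38, and below Irf4 and Bcl2, were named after their values were seen. The calls with the surface list include genes that go along with Ighd, which is in the gate.

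Il7r, Vpreb3, Sox4 and Myb were higher in the members than in Ighd+ cells. Rag1 was required of the members and not of the Ighd+ cells, so that genes that go along with Rag1 were bound to differ. In the 95 Ighd+ barcodes that also held Rag1, pooled over mice, Il7r was 394 CPM, Sox4 545 and Vpreb3 2923. All members, pooled in the same way, had 495, 686 and 3583. The part of Rag1 in these differences was not tested. Il7r ranged over 174 to 779 CPM in the members (median 502) and 76.4 to 167 in the Ighd+ B cells (median 92.5) (1.94 ± 0.21, adjusted p = 2.86e-06). Vpreb3 rose by 1.39 ± 0.22, adjusted p = 0.00484, Sox4 by 1.94 ± 0.31, adjusted p = 0.00257, and Myb, a factor of precursors, by 1.91 ± 0.16, adjusted p = 2.95e-10. Of 24 transcription factors 9 rose and 7 fell, against 8.98% and 12.7% of all genes, with Ebf1 (0.92 ± 0.14), Bach2 (1.09 ± 0.18) and Irf4 (1.40 ± 0.20) among the former and Mef2c (-1.84 ± 0.16) and Klf2 (-0.66 ± 0.096) among the latter. Xrcc6 rose by 2.10 ± 0.19, and Hmgb1 by 0.51 ± 0.12. The survival genes differed in direction: Bcl2l1, which encodes BCL-XL, rose by 1.77 ± 0.25 (too low to be tested without neutrophil-bearing barcodes), whereas Bcl2 fell by 2.34 ± 0.27 and Mcl1 by 0.68 ± 0.12. Tnfrsf13c fell by 2.07 ± 0.18, and Cxcr4 rose by 1.07 ± 0.17. Of 4 light chain genes 3 fell, Iglc2 by 2.19 ± 0.19, and Igkc did not pass (-1.65 ± 0.84, adjusted p = 0.249). In the Ighd+ B cells of NZBWF1 mouse 3, the 7 light chain genes summed to 52257 CPM and the 6 plasma cell markers to 5067. In the other mice tested the sums were 9983 to 23673 and 384 to 1912. Other higher genes of smallest p were Smarca4, an ATPase of chromatin remodelling (1.80 ± 0.14), Cecr2 (1.82 ± 0.15), Fam53b (1.61 ± 0.14), Tifa (1.98 ± 0.16), C1galt1 (1.53 ± 0.15) and Akap12 (1.58 ± 0.15), and lower ones were Shisa5 (-2.46 ± 0.16), the B-cell scaffold Bank1 (-2.90 ± 0.21) and Rpl12 (-0.84 ± 0.071). Of the markers of other cell types, Ccr2 was higher (0.77 ± 0.27, adjusted p = 0.0472), a call lost without NZB mouse 1, NZW mouse 1, NZW mouse 2, NZW mouse 3, NZBWF1 mouse 2 or NZBWF1 mouse 3 (log2 differences 0.59 to 0.88, adjusted p = 0.0546 to 0.194), 1 of 8 neutrophil markers was higher, and Cd2 was lower (-0.60 ± 0.18, adjusted p = 0.0157), a call lost without NZW mouse 1 or NZW mouse 3 (log2 differences -0.51 to -0.49, adjusted p = 0.0841 to 0.0936). The part of the monocyte, T-cell and plasma cell markers in the result was not tested.

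Within the members, a minority of cells held UMIs of the surrogate chain genes. Together, Igll1 and Vpreb1 had 0 UMIs in 399 members, 1 to 3 in 28, and 4 or more in 42, a split chosen after these counts were seen. The 399 had a median of 1335 UMIs, a depth at which 0 UMIs does not show that a gene was off. The 42 were 1, 2 and 2 in NZB, 7, 0 and 7 in NZW, and 3, 17 and 3 in NZBWF1, so that NZBWF1 mouse 2 held 17 of them among its 46 members. Lef1 was 694 CPM in the 42 and 63.4 in the 399, Rag2 245 and 58.9, and Vpreb2 463 and 3.02. The 399 had more Fcrla (830.3 CPM against 299), more Il2ra (96.6 against 13.6), more Cd2 (154 against 27.2), and more Irf4 (175 against 54.4). Vpreb3 was 3687 and 3510 CPM, and Rag1 871 and 862. These values are pooled over cells and carry no test, and those of Il2ra, Cd2 and Irf4 in the 42 rest on few UMIs.

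Expression between strains was tested in the 7 mice with at least 10 members, which are all 3 of NZW and of NZBWF1 and NZB mouse 1. Of 3169 genes, 3 were higher and 4 lower in NZBWF1 than in NZW (0.221%), by edgeR's quasi-likelihood test with Benjamini-Hochberg adjustment, and 146 (4.61%) had an unadjusted p under 0.05. The 7 calls became 12 without NZW mouse 2, and 4 without NZW mouse 3, NZBWF1 mouse 1, or NZBWF1 mouse 3. The gene of smallest p was Ftl1, the light chain of the iron store ferritin (chr7:45457944-45459884, minus strand, GENCODE vM21 on mm10). Ftl1 was 1884, 2252 and 3811 CPM in the members of the NZB mice, 55.6, 26.7 and 68.4 in NZW, and 979, 1236 and 1319 in NZBWF1. No NZW mouse came near either other strain (log2 difference 4.36 ± 0.32, adjusted p = 1.92e-16). Ftl1-ps1, a copy of it on another chromosome (chr13:74399694-74407346, plus strand), was 0, 0 and 0 CPM in NZB, 1850, 1856 and 1642 in NZW, and 843, 1010 and 1164 in NZBWF1. It fell in NZBWF1 against NZW (-0.92 ± 0.20, adjusted p = 0.0148), and against the limit that 3 UMIs over the NZB group set, NZW was at least 21.0-fold higher and NZBWF1 at least 12.3-fold higher. The order of the strains for the copy was thus the inverse of that for Ftl1. Both share nearly all of their sequence, and reads of 1 could be counted to the other, so neither level is certain on its own. The call of Ftl1-ps1 was lost without NZW mouse 1, NZW mouse 3, NZBWF1 mouse 1, NZBWF1 mouse 2 or NZBWF1 mouse 3 (log2 differences -1.03 to -0.78, adjusted p = 0.0553 to 0.217).

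The other 5 called genes were Apobec3, Camk2d, Ifitm1, Ifitm2 and Gm35082. DESeq2 kept the calls of Ftl1, Ifitm1 and Ifitm2, and lost those of Apobec3 (2.34, adjusted p = 0.0993), Camk2d (1.43, adjusted p = 0.598), Ftl1-ps1 (-0.90, adjusted p = 0.658) and Gm35082. Apobec3, an antiviral cytidine deaminase (chr15:79891659-79915906, plus strand), was 492, 334 and 177 CPM in NZB, 20.9, 53.4 and 60.8 in NZW, and 236, 273 and 196 in NZBWF1, with all NZW mice lowest (2.30 ± 0.40, adjusted p = 0.000256). Camk2d, a calcium-dependent kinase (chr3:126596302-126846326, plus strand), was 819, 83.4 and 709 in NZB, 299, 93.5 and 152 in NZW, and 671, 428 and 477 in NZBWF1 (1.37 ± 0.29, adjusted p = 0.0109). NZW and NZBWF1 did not overlap for it, and the call was lost without NZB mouse 1, NZW mouse 3, NZBWF1 mouse 1 or NZBWF1 mouse 3 (log2 differences 1.19 to 1.46, adjusted p = 0.0553 to 0.658). The membrane proteins Ifitm1 (chr7:140967221-140969825, plus strand) and Ifitm2 (chr7:140954837-140955987, minus strand), which restrict viral entry, lie close to each other. Ifitm2 was 0, 751 and 532 CPM in NZB, 2782, 2056 and 2000 in NZW, and 970.2, 1082 and 898 in NZBWF1, and Ifitm1 was 0, 918 and 177 in NZB, 2302, 1415 and 2046 in NZW, and 997, 654 and 993 in NZBWF1. Both fell in NZBWF1 against NZW (-1.31 ± 0.20, adjusted p = 1.6e-05, and -1.20 ± 0.21, adjusted p = 0.000237). With limits of 500 UMIs and 250 genes they were no longer called (-1.31 ± 0.36, adjusted p = 0.542, and -1.08 ± 0.46, adjusted p = 0.845), although NZW and NZBWF1 did not overlap in either gene there, while Ftl1, Apobec3, Camk2d and Ftl1-ps1 were. With all 9 mice, 2 genes were called higher in NZBWF1 than in NZW and 0 lower, so that Ifitm1, Ifitm2 and Ftl1-ps1 were not called. Gm35082, a noncoding RNA (chr7:100675088-100677760, plus strand), had 24 UMIs in NZW and 1 in NZBWF1, a ratio of 0.0371 with a 95% counting interval of 0.000901 to 0.227 (adjusted p = 0.0345), a call that was lost without NZBWF1 mouse 2 (adjusted p = 0.174) and kept without NZW mouse 2. Without any other single mouse, or without the 86 members of many neutrophil UMIs, it was too low to be tested.

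**Figure D4:**
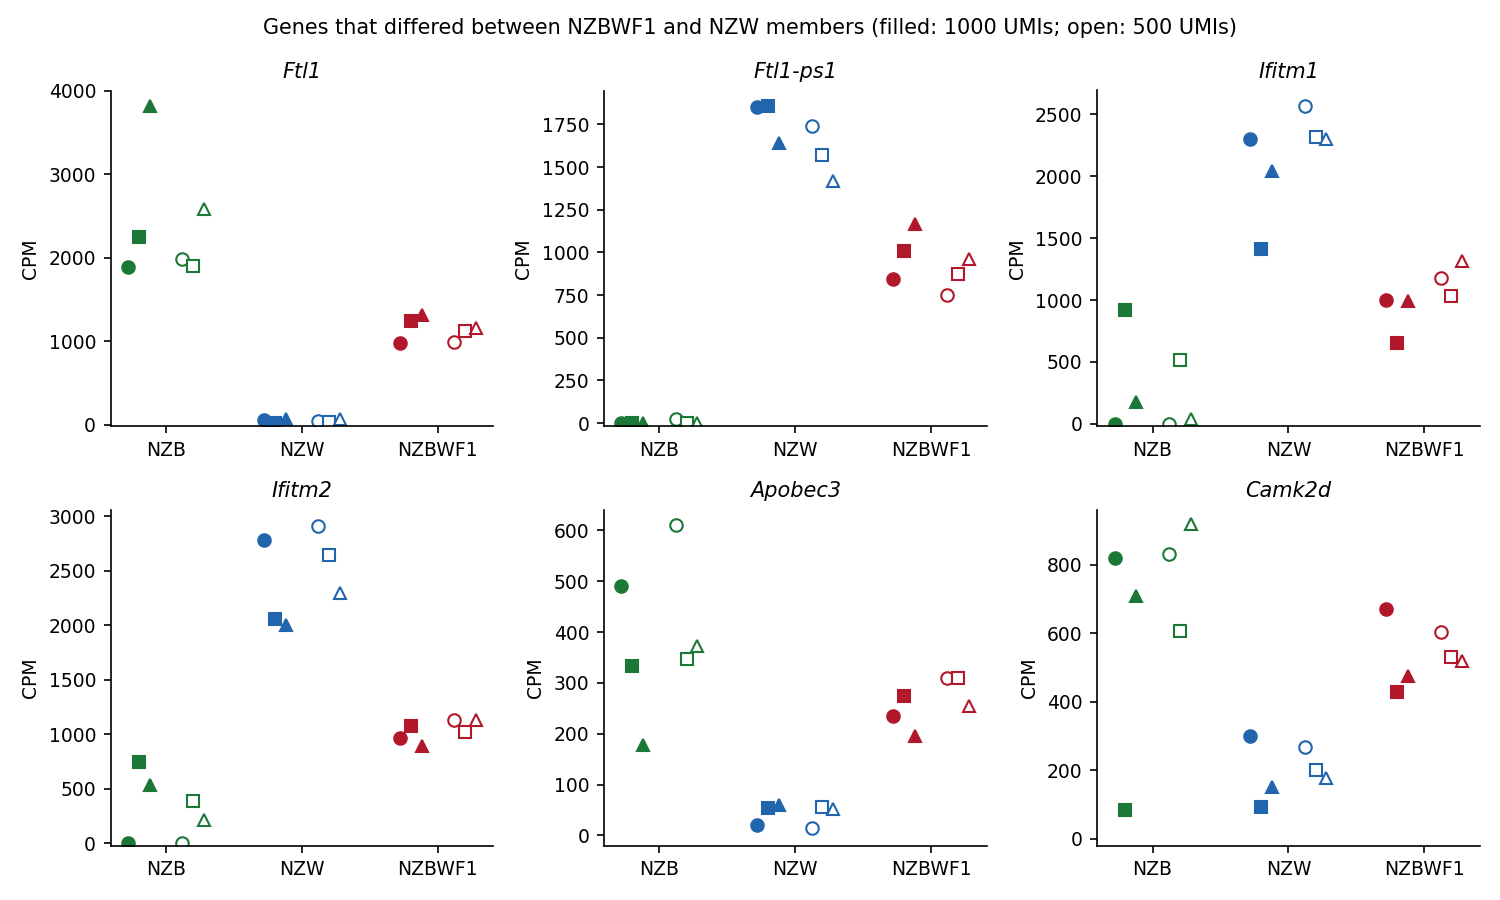
Level in CPM (vertical, linear axes that begin just below 0) of 6 genes in the summed members of each mouse by strain, with filled symbols for the 469 members, open symbols for the members at limits of 500 UMIs and 250 genes, and circles, squares and triangles for mice 1, 2 and 3. NZW is lowest for Ftl1, and highest for Ftl1-ps1, Ifitm1 and Ifitm2, and all 3 NZB mice are at 0 for Ftl1-ps1 among the 469.

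The lists of the small pre-B programme are read against 0.221% of all genes called between NZBWF1 and NZW, a share at which lists of this size would hold few calls or none. No call was made, by edgeR or by DESeq2, among 17 pre-B receptor and signalling genes (median log2 difference 0.0143), 24 transcription factors (0.0541), 5 recombination and end joining genes (-0.337), 5 interleukin-7 and cytokine genes (0.0217), or 11 genes of quiescence (-0.0553), against -0.0165 over all genes. At an unadjusted p under 0.05 these lists, against 4.61% of all genes, held 0, 2, 0, 0 and 0 genes. No call was made either among 4 light chain genes, 7 chemokine and survival receptors, 5 regulators of apoptosis, or 16 genes of the maturing surface, of which 2 had an unadjusted p under 0.05. Il7r was 779, 174 and 502 CPM in NZW and 608, 321 and 416 in NZBWF1, and Vpreb3 was 3874, 2016 and 3574 in NZW and 3745, 3007 and 4244 in NZBWF1, with overlap in both cases (-0.23 ± 0.36, adjusted p = 1.0, and 0.14 ± 0.18, adjusted p = 1.0). Of 20 interferon-stimulated genes tested, Apobec3 was higher and Ifitm2 lower. Of 8 tested genes that the study named, 2 were higher and 2 lower (Ftl1, Apobec3, Ftl1-ps1 and Ifitm2), which is no independent evidence, since that list was made from these samples. On simulated counts the same test found 49 of 200 genes changed 2-fold and 195 of 200 changed 4-fold, so 2-fold differences between these strains were mostly not detectable at this depth.

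Contrasts with NZB rest on 1 mouse of 10 members and 12205 UMIs, which the fit assumes to vary like the mice of the other strains, so that their errors and p-values hold no spread among NZB mice. NZBWF1 had 5 higher genes against NZB (0.158%; Ftl1-ps1, Ifitm2, Ifitm1, S100a6 and Prdx5), NZB had 1 higher and 9 lower against NZW (0.316%), and NZBWF1 had 3 higher against the mean of the parents (0.0947%; Ftl1, S100a6 and Ftl1-ps1). Without NZW mouse 1 these counts were 21, 30 and 15, without NZW mouse 2 they were 20, 23 and 17, and without NZBWF1 mouse 3 the last was 1. All genes tested had a median log2 difference of 0.38 in NZBWF1 against NZB and -0.43 in NZB against NZW, and a gene at 0 UMIs in that mouse has no size of its own. The mean of the parents is one of logs, which a parent near 0 pulls down. In CPM, NZBWF1 lay between the parents for both Ftl1 and Ftl1-ps1. S100a6, a calcium-binding protein of many marrow cells, and the peroxidase Prdx5 were called lower in NZB, but S100a6 was 0, 4839 and 1684 CPM in NZB and 584, 814 and 745 in NZW, and Prdx5 was 81.9, 2586 and 1684 in NZB and 647, 1081 and 882 in NZW. NZB mice 2 and 3, which were not in the fit and in which 3 and 2 of 6 members carried neutrophil transcripts, lay on the other side. With all 9 mice, only Ftl1-ps1 of the 5 genes was called in NZBWF1 against NZB, as at limits of 500 UMIs and 250 genes. With all 9 mice Ifitm1 was at 1.36 (adjusted p = 0.872) and Ifitm2 at 1.30 (adjusted p = 0.798), and in NZB against NZW the calls were lost for Ifitm1 (-2.53, adjusted p = 0.243) and mt-Nd1 (-0.89, adjusted p = 0.108) and kept for Ifitm2. Ly6d was 0, 0 and 266 in NZB and 821, 1522 and 844 in NZW. Of the genes called in NZB against NZW, Ftl1 was 4.55 ± 0.48, adjusted p = 4.86e-10, Ly6e -2.19 ± 0.51, adjusted p = 0.0259, Rps2 -1.90 ± 0.45, adjusted p = 0.0281, and mt-Nd1 -1.39 ± 0.34, adjusted p = 0.0402. The calls were lost for Rps2 without NZW mouse 3 (log2 difference -1.97, adjusted p = 0.0763), for mt-Nd1 without NZW mouse 3 or NZBWF1 mouse 2 (log2 differences -1.48 to -1.39, adjusted p = 0.0687 to 0.0818), and for Prdx5 in NZBWF1 against NZB without NZBWF1 mouse 2 (log2 difference 3.76, adjusted p = 0.0568). Against the mean of the parents they were lost for S100a6 without NZBWF1 mouse 3 (adjusted p = 0.0602) and for Ftl1-ps1 without NZBWF1 mouse 3 (adjusted p = 0.0778). Without the 86 members of many neutrophil UMIs, the calls in NZB against NZW were lost for S100a6 (adjusted p = 0.792), Prdx5 (adjusted p = 0.618) and Ly6d (adjusted p = 0.0764). In NZBWF1 against NZB they were lost for S100a6 (adjusted p = 0.867) and Prdx5 (adjusted p = 0.706), and against the mean of the parents for S100a6 (adjusted p = 0.946) and Ftl1-ps1 (adjusted p = 0.272). DESeq2 called none of the 5 genes in NZBWF1 against NZB, and of the 3 against the mean of the parents only Ftl1.

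With limits of 500 UMIs and 250 genes, all 9 mice had at least 10 members, and the strain contrasts rested on 3 mice each. These members include the 469. NZB against NZW then had 18 higher and 20 lower genes of 3773 (1.01%), NZBWF1 against NZW 11 and 8 (0.504%), and NZBWF1 against NZB 4 and 1 (0.133%). Ftl1 was 1979, 1905 and 2583 CPM in NZB, 41.5, 35.9 and 68.0 in NZW, and 985, 1123 and 1154 in NZBWF1, and it was also lower in NZBWF1 than in NZB (-0.95 ± 0.18, adjusted p = 0.00403). Trib2, a pseudokinase, was 0, 43.3 and 0 CPM in NZB, 529, 411 and 439 in NZW, and 269.5, 170 and 218 in NZBWF1, and passed in each of the 3 contrasts (-1.11 ± 0.20, adjusted p = 0.000303 for NZBWF1 against NZW). Over the NZB group it had 1 UMI. Ctse, an aspartic protease, had 0 UMIs in NZB, against which NZW was at least 7.07-fold and NZBWF1 at least 4.06-fold higher. Ly6e, an interferon-stimulated surface protein, was 659.7, 693 and 416 CPM in NZB, 1567, 1822 and 1444 in NZW, and 1215, 1087 and 962 in NZBWF1, lowest in all 3 NZB mice (-1.59 ± 0.21, adjusted p = 3.36e-07 for NZB against NZW). Apobec3 (3.37 ± 0.36, adjusted p = 7.61e-10), Camk2d (1.80 ± 0.24, adjusted p = 3.13e-07), Ifi214 of the interferon-inducible family (3.68 ± 0.51, adjusted p = 6.83e-07) and the class I gene H2-Q7 (2.30 ± 0.41, adjusted p = 0.000185) were higher in NZB than in NZW. Iglc3 was lower in NZB than in NZW (-2.25 ± 0.35, adjusted p = 8.03e-06) and in NZBWF1 than in NZW (-0.82 ± 0.19, adjusted p = 0.0127). Siglech, a defining marker of plasmacytoid dendritic cells, was also called higher in NZB than in NZW (adjusted p = 0.0237), at 0, 173 and 197 CPM in NZB, 0, 5.13 and 0 in NZW, and 0, 56.7 and 11 in NZBWF1, while Tcf4, the other of 2 tested genes of that list, was not (0.12 ± 0.29, adjusted p = 0.959). In the 469 members the summed level of the list was 1335 and 2216 CPM in NZB mice 2 and 3, of 6 members each. It was 172 to 951 CPM in the other 7 mice. What part such transcripts have in the differences of NZB was not tested. Genes of this paragraph were named after their values were seen.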

How the data were processed

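Bone marrow of 9 mice, 3 per strain, was profiled in 1 droplet library per mouse. The deposited matrices hold UMI counts per gene and barcode that the authors made with Cell Ranger 3.1.0 and bcl2fastq 2.20 on mm10, as the submitters' processing notes name them, and merged over the libraries. Whether merging thinned libraries to equal depth, and the treatment of introns and of reads shared by near-identical genes, are not given in the sources used here. A barcode's library number was read as a row of the list of merged libraries, and no column was left unmapped (0).

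Barcodes with at least 1000 UMIs, 500 genes and at most 10% mitochondrial UMIs were kept, and the gate was applied to raw counts. Doublets stayed in, and an alternative removed the highest Scrublet-type scores of each mouse (0.8% per 1000 barcodes). The members and gene lists were chosen with earlier results of these data known, and several lists come from that earlier work. Counts summed per mouse for mice with at least 10 members were tested with edgeR 4.0.16 (quasi-likelihood, filterByExpr, TMM) in R 4.3.3, at an adjusted p of 0.05, with no replicate block between strains and the mouse as a block between stages. Cell numbers of all 9 mice were tested by quasi-likelihood with the kept barcodes of a mouse as the total. That test used no filterByExpr, TMM or trend of the dispersion. Each SE of an edgeR difference was derived from its test, as the absolute log2 difference over the square root of the F value. Contrasts were taken from 1 fit. CPM values are summed counts scaled to 1000000 UMIs of the same cells. Genes named were the 10 called genes of smallest p per strain contrast, 8 per direction and stage, and, per list, up to 4 called or abundant genes; others are said to be chosen after their values were seen. A gene that this rule names is not reported here. Alternatives used DESeq2 1.42.0, other filters, free RNA subtraction, thinning, left out mice, and other limits of the gate. The test was checked on simulated counts. Python 3.11.15, numpy 2.4.6, scipy 1.17.1, scanpy 1.11.5 and matplotlib 3.10.9 served for the rest. Mice are separate animals, and p-values measure the spread among them and their libraries. NZB had 1 mouse in the expression test between strains.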

Additional observations from a re-analysis of the deposited data

How the results depend on the processing

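The cause of a change named here was not tested. In abundance, NZBWF1 against NZB and NZB against NZW kept direction and call in 21 of 22 alternatives each, leaving out each mouse included (log2 differences 1.44 to 3.67 and -3.33 to -1.19), and lost the call with B-lineage barcodes as the total (1.44 and -1.19, with NZBWF1 over the parents' mean at 0.85). The exact permutation test gave differences of 3.04, -2.71 and 1.69, whose p (0.1, 0.1 and 0.155) did not pass, the first pair being the smallest that 3 against 3 mice can give. NZBWF1 against the mean of the parents was 1.33 to 2.09 with 1 mouse left out. NZBWF1 against NZW was not called in any alternative and changed sign with at most 5% mitochondrial UMIs (-0.0097) and with 1 mouse left out (-0.041 to 0.71).

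Counts of genes called between strains are given in the order NZBWF1 against NZW, NZBWF1 against NZB, NZB against NZW, and NZBWF1 against the mean of the parents, and were 7, 5, 10 and 3. With 1 mouse left out they were 4 to 12, 4 to 21, 8 to 30, and 1 to 17. They were 4, 3, 5 and 1 with members thinned to 1000 UMIs, and 0 in each by edgeR with at least 10 counts in every mouse, where 162 genes were tested and 16, 6, 17 and 8 had an unadjusted p under 0.05. With doublet scores removed, the first was 4 and the third 6. With no filter the last 3 were 25, 35 and 21, and without the 5% of members highest in markers of other lineages they were 12, 16 and 9. DESeq2 called 3, 8, 18 and 3, of which 3, 0, 6 and 1 were among the genes called by edgeR. Rag1 of at least 2 UMIs left 1 in the first. Of the alternatives added after the data were seen, all 9 mice gave 2 in the first and 1 in the second, leaving out neutrophil-bearing members 3 in the second and 1 in the last, and limits of 500 UMIs and 250 genes 19 in the first and 38 in the third. Against large pre-B cells, 3689 genes were called with no filter and 1023 after thinning. Against pro-B cells, 317 were called by DESeq2, 310 after thinning, 348 without neutrophil-bearing barcodes, and 337 to 542 with 1 mouse left out.

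Mice of the strains share a replicate number, and nothing in the labels makes it a pairing. Deviations of NZW and NZBWF1 mice of the same number correlated at 0.099, 0.137 and 0.00109 over genes, so not every pair was above 0.1. Pairs of unlike number correlated at -0.124 to 0.0584. In abundance, a block for the number lowered the SEs of the contrasts, in the order above, to 0.21, 0.27, 0.27 and 0.20. Without it they were 0.55, 0.65, 0.65 and 0.49, so that mice of a strain differed in abundance along with their number. With the number as a replicate block, 13, 14, 22 and 14 genes were called, and the differences in abundance were 0.33, 3.01, -2.68 and 1.67, with no call changed.

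S100a6 and Prdx5, called lower in NZB with 1 NZB mouse, changed sign with more NZB mice. In NZB against NZW, S100a6 was 1.49 in all 9 mice and 1.12 at the looser limits, and Prdx5 0.58 and 0.11. In NZBWF1 against NZB, S100a6 was -1.28 and -0.96, and Prdx5 -0.68 and -0.17. Against the mean of the parents, S100a6 was -0.54 and -0.40. Between stages, the other genes that changed sign were not called in the test as reported (log2 difference in parentheses). Against large pre-B cells, Igkc (0.19) was -0.044 with no filter, -0.056 with no mouse block and -0.49 to 0.91 with 1 mouse left out, Trp53 (-0.043) was 0.074 by DESeq2, 0.57 thinned, 0.14 with doublet scores removed, 0.056 with free RNA subtracted, 0.27 without neutrophil-bearing barcodes and -0.075 to 0.15 with 1 mouse left out and Mzb1 (0.094) was -0.17 with no filter and -0.0087 to 0.25 with 1 mouse left out. In the same comparison, Vpreb1 (-0.32) was 0.46 thinned. Against pro-B cells, Iglc2 (1.45) was -1.52 with no mouse block, Sox4 (0.013) was -0.073 thinned, -0.0080 with doublet scores removed and -0.033 to 0.10 with 1 mouse left out and Il7r (-0.0063) was 0.053 with no filter, 0.043 thinned, 0.022 with doublet scores removed, 0.057 with no mouse block, 0.12 without neutrophil-bearing barcodes and -0.098 to 0.12 with 1 mouse left out. In the same comparison, Jak1 (0.00015) was -0.0051 thinned, -0.0027 with free RNA subtracted, -0.032 with no mouse block, -0.036 without neutrophil-bearing barcodes and -0.13 to 0.25 with 1 mouse left out, Trp53 (-0.25) was 0.086 thinned and -0.42 to 0.0064 with 1 mouse left out and Xbp1 (-0.15) was -0.40 to 0.15 with 1 mouse left out. In the same comparison, Pax5 (0.085) was -0.054 thinned. Against Ighd+ B cells, Ighm (-0.10) was 0.0061 with no mouse block, 0.080 without neutrophil-bearing barcodes and -0.39 to 0.11 with 1 mouse left out, Trp53 (-0.10) was 0.22 thinned, 0.074 without neutrophil-bearing barcodes and -0.22 to 0.028 with 1 mouse left out and Ifitm2 (-0.046) was 0.073 without neutrophil-bearing barcodes and -0.11 to 0.021 with 1 mouse left out. In the same comparison, Ifi27l2a (-0.16) was 0.0082 without neutrophil-bearing barcodes, Ftl1 (0.075) was -0.12 with no filter and -0.025 to 0.22 with 1 mouse left out and S100a9 (0.27) was -0.23 without neutrophil-bearing barcodes. In the same comparison, S100a8 (0.33) was -0.14 without neutrophil-bearing barcodes, Camp (0.37) was -0.16 without neutrophil-bearing barcodes and Xbp1 (0.22) was -0.081 to 0.39 with 1 mouse left out. In the same comparison, Tcf4 (-0.12) was -0.33 to 0.082 with 1 mouse left out. Of these, Trp53 passed against large pre-B cells after thinning (adjusted p = 0.0339). Over the named genes, 3139 values kept direction and call, 203 lost and 72 gained the call.

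Depth is a limit. A member had a median of 1356 UMIs, NZB mouse 1 had 12205 UMIs in all, and 2-fold differences between strains were mostly missed on simulated counts. No source used here says whether libraries were thinned to equal depth on merging.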
